A study of Danio rerio with 6 samples.

Results

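Juvenile zebrafish of 28 dpf (days post fertilisation) were compared with adult female zebrafish, in RNA from whole bodies. The comparison used 2 juveniles and 2 adult females. Transcripts were kept where at least 2 of the 6 fish of the series had a value of at least 10 normalised counts, which left 13748 of the 13927 transcripts in the table. The 2 adult males of the series are given beside them as a further group. Each library is 1 fish, no fish was treated, and all had been killed with Tricaine at the breeder before sampling. The labels give no sex for the juveniles and neither a strain nor an age for the adults. From the expression in these same fish the study assumes both juveniles to be male. Differences of age and of sex cannot be told apart in this comparison. The juvenile columns are numbered 2 and 3, and these numbers are kept.

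An adult female zebrafish carries a large ovary, and its oocytes store RNA that is later used by the embryo. Oocyte growth factors and egg proteins are known markers of this tissue, while the yolk precursor is made in the liver of females. Domesticated zebrafish have no single sex chromosome that decides sex, and in many of them the juvenile gonad first forms early oocytes before it becomes an ovary or a testis. Steroid enzymes such as the aromatase cyp19a1a, which makes oestrogen, and transcription factors such as sox9a are used as marks of the female and of the male course. A whole-body library mixes the gonad with muscle, liver, blood and all other organs, so fewer cells of a type and less RNA per cell cannot be told apart.

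Every transcript of the table had been chosen by the authors for a difference between females and juveniles. How many transcripts differ is therefore set by that choice, and the direction, size and abundance of the differences are described here without a test. With 2 fish against 2 an exact two-sided permutation test could not go below p = 0.333 (n = 2 per group). The reads of the table came to 17243855 and 18635087 in the juveniles, to 18439319 and 15947424 in the females, and in the males to 13980849 and 15881031. These totals cover only the chosen transcripts, so the depth of the libraries is not known from them. The values are reads divided by a size factor per fish, with no division by transcript length, so a level can be compared between fish but only roughly between transcripts.

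Of the 13748 transcripts, 5940 (43.2%) were higher in juveniles and 7808 (56.8%) were lower in juveniles than in females. With the authors' size factors the typical difference was about equal in both directions, but this was lost with each of the 4 other scalings. The median size was 2.17 on the log2 scale of group means plus 1 (4.50-fold) for transcripts higher in juveniles and 2.20 (4.58-fold) for transcripts lower in juveniles. With upper-quartile scaling, which lay furthest from the authors', the median log2 ratio was 2.96 as juveniles over females for transcripts higher in juveniles and -1.40 for those lower. The smallest differences were 0.44 and 0.41 on the log2 scale. The directions separated in their tails under the authors' size factors. All 4 other scalings raised juveniles over females, so the percentiles below depend on the size factors. They were not taken again with another scaling. The upper quartile of the log2 size was 2.98 for transcripts higher in juveniles and 3.54 for those lower, and the 90th percentile was 4.02 and 5.26.

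The asymmetry grew with the size of the difference under the authors' size factors. Of the counts below only those at 64-fold were taken with other scalings, and the upper quartile gave 138 higher and 296 lower. The order at 4-fold and 16-fold under other scalings is therefore not known. At 4-fold or more, 3369 transcripts were higher and 4374 were lower in juveniles. At 16-fold or more there were 599 higher and 1537 lower, and at 64-fold or more 78 higher and 495 lower. At 1024-fold or more only 6 were higher and 67 were lower in juveniles. With 1 added to each mean, a transcript can reach such a size only at a high level in its higher group. A level of at least 1000 was reached by 1058 transcripts in the higher direction and by 3599 in the lower. Between a mean of 1000 and 10000, 16 of 629 transcripts were 64-fold or more higher and 101 of 2694 were 64-fold or more lower. Below a mean of 50 the numbers were 11 of 1293 higher and 107 of 1203 lower. Between 50 and 200 they were 30 of 1987 and 151 of 1412, and between 200 and 1000 they were 16 of 1953 and 105 of 2346. At 10000 or more they were 5 of 78 and 31 of 153. The asymmetry of these counts thus changed with level, and under the authors' size factors the lower direction had the larger share within each class. The number at 64-fold or more in the higher direction rose from 78 to 152 when female 1 was left out. It was 110 without female 2, 97 without juvenile 2 and 71 without juvenile 3. The number in the lower direction was 495 with all fish, and no fish moved it by more than 1.5 times.

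**Figure D1:**
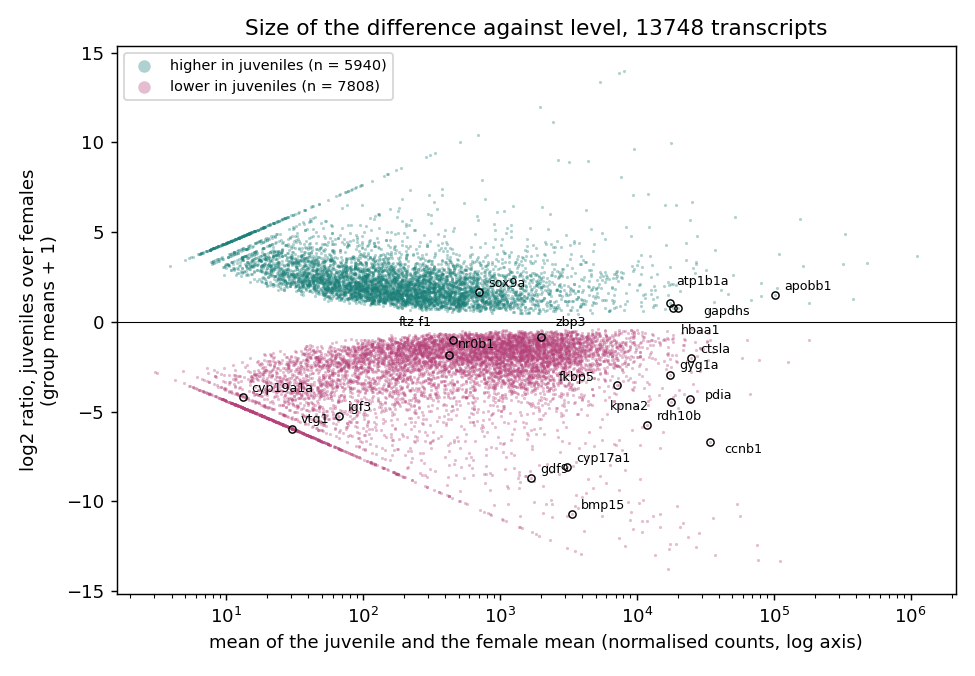
Each of the 13748 transcripts is drawn by the mean of its juvenile and female means in normalised counts (log axis) and by the log2 ratio of juveniles over females, with the 21 named genes circled. The 5940 transcripts higher in juveniles lie in a narrower band than the 7808 lower in juveniles, whose cloud reaches far down at all levels, and the empty strip around 0 is the authors' choice of transcripts.

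**Figure D2:**
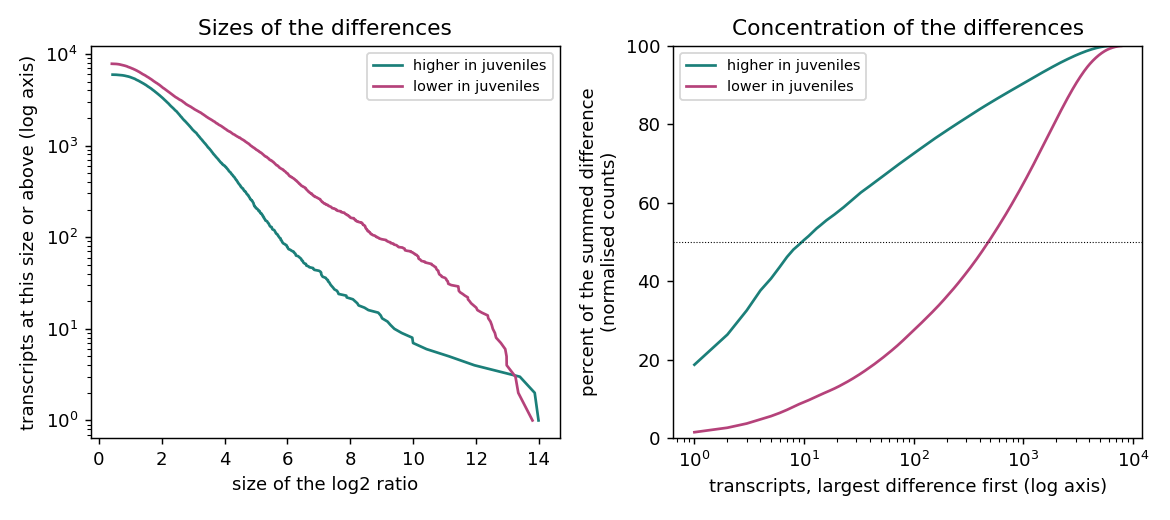
The left panel counts the transcripts at or above each log2 size (log axis) and the right panel gives the share of the summed difference held by the transcripts, largest first (log axis). At a log2 size of 6 there are 78 transcripts higher and 495 lower in juveniles, and the dotted line at 50% is crossed at 10 transcripts for the higher direction and at 480 for the lower.

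Under the authors' size factors the transcripts higher in juveniles were on the whole weakly expressed, and the transcripts lower in juveniles were more abundant. The other scalings raised juveniles over females, so the levels and shares below depend on the size factors. They were not taken again with another scaling. In the fish where each was higher, the median level was 261 normalised counts for transcripts higher in juveniles and 822 for transcripts lower in juveniles. A level of at least 1000 was reached in juveniles by 1058 (17.8%) of the transcripts higher there, and in females by 3599 (46.1%) of the transcripts lower in juveniles. At 10000 or more the numbers were 115 and 322. Divided by level, the share of transcripts that were higher in juveniles was 51.8% below a mean of 50 normalised counts and 58.5% between 50 and 200. It was 45.4% between 200 and 1000, 18.9% between 1000 and 10000, and 33.8% at 10000 or more, where 78 transcripts were higher and 153 were lower.

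The size of the difference also followed the level. Below a mean of 50 normalised counts the median log2 size was 3.31 for transcripts higher in juveniles and 4.21 for those lower. Between 1000 and 10000 it was 1.78 and 1.79. The fifth percentile of the log2 size was 2.00 and 1.98 in the lowest class and 0.75 and 0.64 in the highest. Small differences of weakly expressed transcripts are thus rare in the table, and sizes can be set side by side only within a level. Within each class below 1000 the lower direction had the larger median with the authors' size factors, and at 10000 or more the medians were 2.11 for transcripts higher and 2.01 for those lower. In that highest class 5 transcripts were 64-fold or more higher in juveniles and 31 were 64-fold or more lower.

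Transcripts without a single read in one group were found in both directions. The females had 0 reads of 266 (4.48%) of the transcripts higher in juveniles, and the juveniles had 0 reads of 600 (7.68%) of the transcripts lower in juveniles. Most of these were weak in the other group, with a median of 27.9 normalised counts in juveniles and 49.2 in females. A level of at least 1000 was reached by 6 of the 266 in juveniles and by 22 of the 600 in females. The males had 0 reads as well for 20 of the 266 and for 169 of the 600. A count of 0 over both fish allows up to 1.49 normalised counts in juveniles and 1.93 in females, as 3 reads over the group, and covers counting error only.

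The sum of the differences was held by few transcripts in one direction and by many in the other. A share of 50% of the summed difference lay in 10 transcripts for the higher direction and in 480 for the lower, as counted from the largest difference down. The largest single difference made up 18.7% of the sum upward and 1.54% of the sum downward, and the 10 largest made up 50.5% and 9.20%. The summed difference of the transcripts higher in juveniles was 0.708 times that of the transcripts lower in juveniles. By construction the 2 sums differ by as much as the mean totals of normalised counts of the 2 groups. This ratio therefore depends on the size factors and is not a separate property of the directions.

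The shares of the directions in each fish follow in part from how the directions were defined, on the same juveniles and females, and are given as a description. All percents are of the counts of the kept transcripts, since transcripts outside the table are not known. In juveniles 2 and 3 the transcripts higher in juveniles held 72.0% and 71.8% of the normalised counts, against 13.0% and 10.4% in females 1 and 2. In males 1 and 2 they held 33.6% and 39.0%. The 10 most abundant transcripts of the fish made up 34.6% and 32.3% of the counts in the juveniles, against 8.20% and 7.79% in the females, with 12.0% and 15.7% in the males. A share of 50% of the counts was reached with 75 and 100 transcripts in the juveniles, against 589 and 595 in the females. Both juveniles lay outside the range of the 4 adults in the share of the 10 most abundant transcripts. The number of kept transcripts with 0 reads was 789 and 859 in the juveniles, against 402 and 520 in the females.

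**Figure D3:**
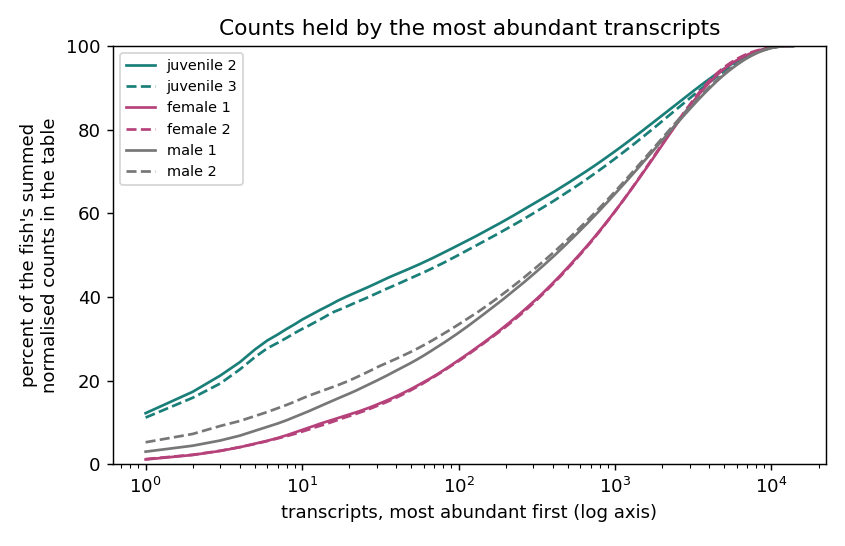
The share of a fish's summed normalised counts in the table is drawn against the number of transcripts, most abundant first (log axis), for each of the 6 fish. The juvenile curves lie above the others, with 34.6% and 32.3% of the counts in 10 transcripts, the female curves lie on each other at 8.20% and 7.79%, and the male curves lie between at 12.0% and 15.7%.

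The transcript with the largest difference upward, MSTRG.21586.1, had 2227693 and 1924506 normalised counts in juveniles 2 and 3, against 190058 and 142667 in females 1 and 2. Among the kept transcripts it was the most abundant in both juveniles, with 12.2% and 11.2% of their counts, and was 12.5-fold higher in juveniles. Transcripts outside the table do not enter this rank or these shares. Its log2 fold change from limma was 3.65 (standard error 0.41). The table gives no gene name for it. The males had 144483 and 252348 normalised counts, which overlapped the females.

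The transcript with the largest ratio upward, MSTRG.12873.1, had 15144 and 17373 normalised counts in juveniles 2 and 3 and 0 reads in all 4 adults. Against a floor of 3 reads over both females, this was at least 8434-fold higher in juveniles, and at least 3846-fold without female 1 and 4668-fold without female 2, where the floor is that of 1 fish. It did not stand alone in the numbering of the assembly. Within 10 locus numbers there were 14 kept transcripts with itself included, of which 12 were higher in juveniles and 2 were lower. Of all kept transcripts 43.2% were higher in juveniles. Some of the 14 are transcripts of the same locus, so they are not 14 separate loci. Of these 14, 6 had 0 reads in all adults, with juvenile means between 32.2 and 16259 normalised counts. The most abundant of the 14 reached 18507 normalised counts in juveniles, against a female mean of 136. These neighbours were picked after their values had been seen.

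Downward, MSTRG.14894.1 had the largest difference, with 36.0 and 4.63 normalised counts in juveniles 2 and 3 (34 and 5 reads) against 244904 and 198379 in females 1 and 2. It was the most abundant kept transcript of female 1, and its mean was 10916-fold lower in juveniles. This ratio rested on few juvenile reads, and was 47900 without juvenile 2 and 6160 without juvenile 3. MSTRG.15263.1 had the largest ratio downward, with 0 and 2.78 normalised counts in the juveniles (0 and 3 reads) against 32740 and 35226 in the females. The mean of the females was 24481 times that of the juveniles, with a 95% counting interval of 7816 to 110764. It was 12240 without juvenile 2 and at least 10705 without juvenile 3. The males had 58.7 and 19.2 normalised counts of MSTRG.14894.1 and 72.9 and 4.0 of MSTRG.15263.1, so both transcripts were also far below the females in males.

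Loci with consecutive numbers in the assembly shared their direction more often than loci further apart in number. Locus numbers are given by the assembly, and the table holds no coordinates, so a distance in number is not a distance in bases. Among 6069 pairs of loci with consecutive numbers, 68.1% had the same direction. The share was 58.7% at a distance of 2 and 53.9% at a distance of 3. It lay between 50.8% and 52.9% at distances of 5 to 100. Runs of 5 or more consecutive loci in one direction numbered 36 for higher and 59 for lower in juveniles, and the longest run was 10 loci in each direction. Whether neighbouring loci are pieces of one gene or share reads was not tested.

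**Figure D4:**
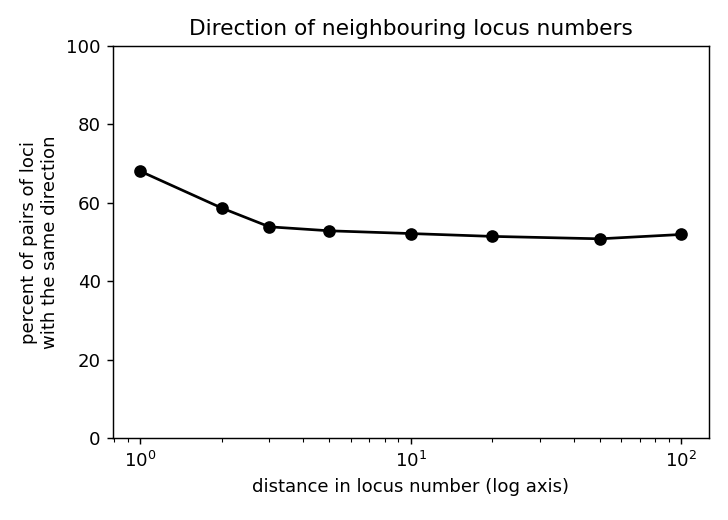
The percent of pairs of loci with the same direction is drawn against their distance in locus number (log axis). It is 68.1% for consecutive numbers and stays between 50.8% and 52.9% from a distance of 5 onward.

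More than 1 kept transcript was present at 291 of the 13408 loci, with 631 transcripts in all. At 97 of these loci all transcripts were higher in juveniles, at 143 all were lower, and at 51 (17.5%) the transcripts of one locus went in opposite directions. Transcripts of one locus can share reads, which limits how far they can be told apart.

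The fish of the 2 groups rarely overlapped. Both juveniles were above both females in 5925 transcripts (43.1% of the 13748), and both were below in 7781 (56.6%). Only 15 transcripts in the higher direction and 27 in the lower had overlapping values. The limma fit called 5905 transcripts higher (43.0%) and 7713 lower (56.1%) in juveniles at a Benjamini-Hochberg threshold of 0.05. The transcripts were chosen on this contrast, so nothing is read from these shares.

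The fish within a group were not equally alike in both directions. In transcripts higher in juveniles the median distance on the log2 scale was 0.34 between the juveniles and 0.48 between the females, and in transcripts lower in juveniles it was 0.25 and 0.26. A distance of more than 4-fold in the higher direction was found in 82 transcripts between the juveniles and in 364 between the females. In the lower direction these numbers were 387 between the juveniles and 273 between the females. The pair with the lower values thus had more wide distances in each direction. With transcripts of a mean of at least 100 normalised counts over the 4 fish, the numbers were 20 and 91 in the higher direction, and 172 and 96 in the lower. Female 1 was above female 2 in 60.8% of the transcripts higher in juveniles and in 35.9% of those lower. Juvenile 2 was above juvenile 3 in 35.4% and 51.7%. The reason for the wide distances was not tested.

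The table itself gives no gene names. Names were taken from an earlier match of transcripts to values shown for each fish by the study. Of 28 marker genes 21 could be named, and 7 were not analysed here. The match was not repeated, sox9a matched on all values but 1, and vtg1 and cyp19a1a rest on few reads, so their identity is less certain. Every transcript of the table was chosen on this contrast, and the study selected part of these genes on the same fish. Their direction is therefore not independent evidence. Of the 21 genes, 16 were lower and 5 were higher in juveniles, and in none did the juveniles and females overlap. Over all 13748 transcripts both juveniles were below both females in 56.6% and above both in 43.1%. The lack of overlap is thus not particular to these genes. The median log2 size of the 16 was 4.41, beside 2.20 for all transcripts lower in juveniles, and that of the 5 was 1.06, beside 2.17 for all transcripts higher in juveniles. These medians run over genes of very different levels, so each gene is set against the transcripts of its own direction and level class where its rank is given.

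The oocyte growth factors had some of the largest differences at their level. Bmp15 (MSTRG.10580.1), a growth factor made by oocytes, had 2.12 and 3.70 normalised counts in juveniles 2 and 3 (2 and 4 reads) against 5940 and 7429 in females 1 and 2. It was 2298-fold lower in juveniles, with a log2 fold change of -10.76 (standard error 0.69), and 99.1% of the 2694 transcripts lower in juveniles at a mean of 1000 to 10000 normalised counts had a smaller difference. For gdf9 this share was 98.2%. Gdf9 (MSTRG.18441.1), its close relative in the same family, had 2.12 and 12.0 normalised counts in the juveniles (2 and 13 reads) against 3021 and 3705 in the females. It was 475-fold lower in juveniles (log2 fold change -9.04, standard error 0.96), 280-fold without juvenile 2 and 1059-fold without juvenile 3. Both genes had at most 13 reads in a juvenile and were well counted in the females. The males had 31.1 and 7.19 normalised counts of bmp15 and 24.0 and 4.0 of gdf9.

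One gene of cell division and one of nuclear import were also lower in juveniles. Ccnb1 (MSTRG.7701.1), the cyclin that drives entry into mitosis and meiosis, had 658 and 627 normalised counts in juveniles 2 and 3 against 53898 and 81366 in females 1 and 2. It was 105-fold lower in juveniles (log2 fold change -6.68, standard error 0.24). Kpna2 (MSTRG.3747.1), an importin that carries proteins into the nucleus, had 1614 and 1423 normalised counts in the juveniles against 31502 and 36809 in the females, 22.5-fold lower (log2 fold change -4.49, standard error 0.19). The juvenile level of both genes was close to that of the males, which had 860 and 649 normalised counts of ccnb1 and 1058 and 1411 of kpna2.

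Among the genes of steroid synthesis and gonad regulation the differences ran from 2.03-fold to 290-fold. Cyp17a1 (MSTRG.17444.1), an enzyme on the way to androgens and oestrogens, had 24.3 and 18.5 normalised counts in juveniles 2 and 3 against 5786 and 6642 in females 1 and 2. It was 290-fold lower in juveniles (log2 fold change -8.12, standard error 0.48). The males had 251 and 91.9 normalised counts, above both juveniles. Cyp19a1a (MSTRG.23446.1), the gonadal aromatase, had 0 and 0.925 normalised counts in the juveniles (0 and 1 read) against 20.9 and 31.0 in the females (18 and 22 reads). The mean of the females was 56.1 times that of the juveniles, with a 95% exact counting interval of 8.78 to 2098. It was 28.0 without juvenile 2 and at least 8.17 without juvenile 3, where only the floor of 3 reads remains. Igf3 (MSTRG.11416.1), an insulin-like growth factor of the fish gonad, had 2.12 and 2.78 normalised counts in the juveniles (2 and 3 reads) against 102 and 161 in the females, and was 53.7-fold lower (log2 fold change -5.23, standard error 0.59).

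The nuclear receptors of this group had smaller ratios. Ftz-f1 (MSTRG.28175.1), a receptor of the family that controls steroid enzymes, had 287 and 317 normalised counts in juveniles 2 and 3 against 674 and 550 in females 1 and 2, which was 2.03-fold lower (log2 fold change -1.01, standard error 0.21), but with upper-quartile scaling its log2 fold change was -0.07 and its call was lost. Nr0b1 (MSTRG.15275.1), known in mammals as the repressor DAX1, had 224 and 146 normalised counts in the juveniles against 733 and 602 in the females, which was 3.60-fold lower (log2 fold change -1.87, standard error 0.62). The limma call of nr0b1 was lost with the median of ratios, TMM and the upper quartile, and with any 1 of the 4 fish left out. The males were wide apart for nr0b1, with 563 and 143 normalised counts, and all 3 groups share the estimate of the spread. With the 4 compared fish alone the standard error of nr0b1 was 0.30 and its adjusted p from limma was 0.0032. Sox9a (MSTRG.15807.1), known as a regulator of testis and cartilage formation, was the only gene of this group higher in juveniles, with 1084 and 1059 normalised counts against 283 and 400 in the females. It was 3.13-fold higher (log2 fold change 1.67, standard error 0.25), and 46.4% of the 1953 transcripts higher in juveniles at a mean of 200 to 1000 normalised counts had a smaller difference.

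The yolk and egg genes gave an uneven picture. Vtg1 (MSTRG.28203.104), a vitellogenin, the yolk precursor made in the liver of females, had 0 reads in both juveniles against 51.1 and 70.5 normalised counts in females 1 and 2 (44 and 50 reads). This was at least 40.8-fold lower in juveniles, and at least 21.9-fold without juvenile 2 and 19.1-fold without juvenile 3, where the floor is that of 1 fish. Several vitellogenin genes of zebrafish are near-identical copies, so reads could be split among them and the level is uncertain. The values are also those of a single assembled transcript, whose number within its locus is high. They do not cover other transcripts assembled at that locus. The level and the fold bound therefore hold for this transcript and not for the whole gene. Zbp3 (MSTRG.1627.1), discussed as an egg gene, had 1569 and 1318 normalised counts in the juveniles against 2423 and 2724 in the females. It was 1.78-fold lower (log2 fold change -0.84, standard error 0.17), but 0.11 higher on the log2 scale with upper-quartile scaling.

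The other kept transcript of the locus of zbp3 was at a very different ratio. It had 15.9 and 1.85 normalised counts in juveniles 2 and 3 (15 and 2 reads) against 20893 and 22445 in females 1 and 2, so its mean was 2445-fold lower in juveniles. The ratio was 11707 without juvenile 2 and 1365 without juvenile 3. The males had 74.7 and 12.0 normalised counts. This transcript has no name of its own in the match of genes and was picked after its values had been seen.

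Of the genes of metabolism and protein handling, all 4 were lower in juveniles. Rdh10b (MSTRG.2145.1), a retinol dehydrogenase on the way to retinoic acid, had 466 and 391 normalised counts in juveniles 2 and 3 against 22451 and 24520 in females 1 and 2, and was 54.9-fold lower (log2 fold change -5.78, standard error 0.15). Pdia (MSTRG.29926.1), a protein disulphide isomerase, had 2561 and 2103 normalised counts in the juveniles against 40197 and 53011 in the females, 19.99-fold lower (log2 fold change -4.31, standard error 0.21). Its males, with 13051 and 10579 normalised counts, lay between the juveniles and the females. Gyg1a (MSTRG.2047.1), the primer of glycogen synthesis, had 4156 and 3829 normalised counts in the juveniles against 29395 and 32685 in the females, 7.78-fold lower (log2 fold change -2.96, standard error 0.39). Ctsla (MSTRG.7542.1), a lysosomal protease, had 10221 and 9344 normalised counts in the juveniles against 37064 and 42760.5 in the females, 4.08-fold lower (log2 fold change -2.03, standard error 0.30).

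The 4 abundant genes apobb1, atp1b1a, gapdhs and hbaa1, which the study discusses as male markers, were higher in juveniles. Of the other male markers of the study named here, sox9a was higher in juveniles and fkbp5 was lower. Apobb1 (MSTRG.25558.1), an apolipoprotein B that carries lipids, had 140691 and 161111 normalised counts in juveniles 2 and 3 against 55243 and 53648 in females 1 and 2, and was 2.77-fold higher (log2 fold change 1.47, standard error 0.34). The males, at 154533 and 80684 normalised counts, share in that standard error. With the 4 compared fish alone the standard error of apobb1 was 0.14. Atp1b1a (MSTRG.8760.1), a subunit of the sodium pump, had 23059 and 23811 normalised counts in the juveniles against 13056 and 9478 in the females, 2.08-fold higher (log2 fold change 1.07, standard error 0.19). Gapdhs (MSTRG.21286.1), a glycolytic dehydrogenase whose counterpart in mammals is a sperm enzyme, had 24122 and 25901 against 16173 and 13282, 1.70-fold higher (log2 fold change 0.77, standard error 0.17). Hbaa1 (MSTRG.4430.1), an alpha globin of red blood cells with close copies in the genome, had 24586 and 21781 against 15467 and 11988, 1.69-fold higher (log2 fold change 0.77, standard error 0.19). The juvenile mean was 0.988, 0.982, 1.01 and 1.28 times the male mean for gapdhs, atp1b1a, hbaa1 and apobb1. Of the 78 transcripts higher in juveniles at a mean of 10000 or more, 6.41%, 12.8%, 5.13% and 25.6% had a smaller difference than gapdhs, atp1b1a, hbaa1 and apobb1. In that class 153 transcripts were lower in juveniles, so these genes do not stand for abundant transcripts at large. The limma calls of apobb1, gapdhs and hbaa1 were each lost with 1 fish left out, which was either female for apobb1, female 2 for gapdhs, and juvenile 2 or female 2 for hbaa1.

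Fkbp5 (MSTRG.9012.1), a co-chaperone of steroid receptors that is induced by glucocorticoids, had 765 and 1520 normalised counts in juveniles 2 and 3 against 13753 and 12559 in females 1 and 2. It was 11.5-fold lower in juveniles (log2 fold change -3.61, standard error 0.34). The males were highest, with 43027 and 30897 normalised counts. Their mean was 32.4 times the juvenile mean, the largest such ratio among the 21 genes.

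**Figure D5:**
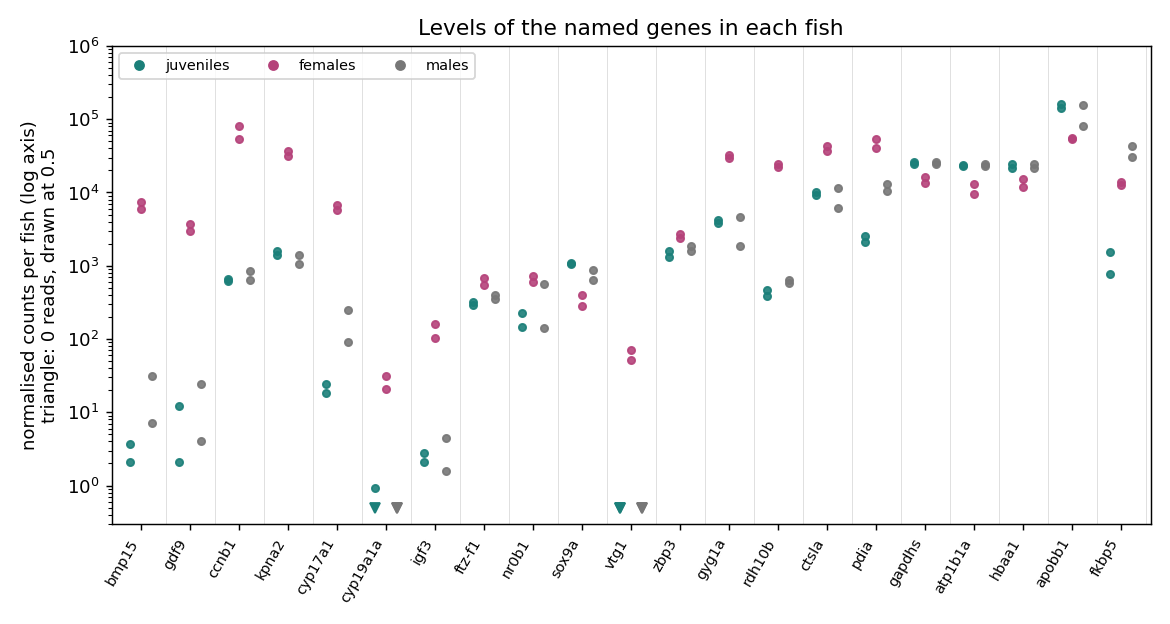
The normalised counts of the 21 named genes are drawn for each juvenile, female and male fish on a log axis, with triangles for 0 reads. Juveniles and females do not overlap in any gene, and the juveniles lie below the females in 16 genes and above them in 5. Over all 13748 transcripts both juveniles lie below both females in 56.6% and above both in 43.1%. Among genes with reads in all 4 of these fish bmp15, gdf9 and cyp17a1 show the widest gaps.

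The males stood differently to the 2 directions under the authors' size factors, the only ones used for the percentages below. In transcripts higher in juveniles the male mean lay between the juvenile and the female mean in 86.0%, at or above both in 7.15% and at or below both in 6.89%. The median log2 ratio of juveniles over males was 1.19 there, and that of males over females was 0.95. In transcripts lower in juveniles the male mean lay between in 59.7%, at or above both in 14.1% and at or below both in 26.2%. The median log2 ratio was -0.45 for juveniles over males and -1.58 for males over females. Size factors estimated again on the table raised males over females by between 0.56 and 1.02 on the log2 scale. In the higher direction all 4 of them turned the order, and the median log2 ratio of juveniles over males was 1.24, 1.03, 1.00 and 0.70 with the median of ratios, TMM, the upper quartile and the total, beside 1.497, 1.49, 1.87 and 1.73 for males over females. In the lower direction only the total turned the order, with -0.93 for juveniles over males and -0.79 for males over females. These medians share the males and the selection on juveniles against females, and are given as a description.

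The balance of the directions depended in part on the size factors. Relative to the authors' size factors, those estimated again on the table raised juveniles over females by 0.66 on the log2 scale with the median of ratios, 0.40 with TMM, 0.95 with the upper quartile and 0.31 with the total of the table. The share of transcripts higher in juveniles was 43.2% with the authors' size factors, with TMM and with the total. It was 44.1% with the median of ratios and 47.8% with the upper quartile. Of the limma calls, given as background only, 43.4% were higher in juveniles with the authors' size factors. This share of calls was 50.2% with the median of ratios, 46.5% with TMM, 55.0% with the upper quartile and 45.3% with the total. The median of ratios and TMM take most transcripts as equal between fish, whereas all of these were chosen for being unequal. The upper quartile and the total make that value of the chosen transcripts equal between fish. The fold changes of well counted genes move by about the same amounts, so that with the upper quartile apobb1 was at 2.41 and nr0b1 at -0.92 on the log2 scale.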

How the data were processed

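RNA of whole bodies from 2 juveniles of 28 dpf, 2 adult females and 2 adult males was sequenced with the standard Illumina RNA protocol, with 1 library per fish. Per the labels and the methods of the study, reads were mapped to GRCz11 with HISAT2 2.1.0, transcripts were assembled and merged with StringTie 1.3.4, reads were counted with featureCounts 1.6.3 and groups were compared with DESeq2 2.11.40.2 (Galaxy). What the authors deposited as signal values are normalised counts, in which the reads of a transcript are divided by the size factor of the fish, a median of ratios. All values were whole multiples of 1 read within 0.01 of a read (100% in each fish), so reads could be recovered. The table also holds the authors' mean over the fish, log2 fold changes, standard errors, Wald statistics, p-values and adjusted p-values, a difference of females and males, a mark on some transcripts and an empty column for genes. These were not used, except to check that every adjusted p was under 0.05.

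Columns were given to groups by their names, and the numbers 2 and 3 of the juvenile columns could not be tied to the labels, which number them otherwise. A transcript was kept where 2 or more fish had 10 or more normalised counts. Ratios are of group means, and log2 sizes add 1 to each mean. A floor of 3 reads over the group was used where a group had 0 reads, and intervals and floors cover counting error only. Fold changes with standard errors come from limma 3.58.1 with a trend, run in R 4.3.3 on log2 of the normalised count plus 1. The 6 fish entered as 3 groups, which leaves 3 residual degrees of freedom, and p-values were adjusted by Benjamini-Hochberg at 0.05. The standard errors therefore also hold the spread between the males. On this scale the change of weak transcripts is understated. The fit was tested on simulated data.

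The named genes are every marker gene of the study with an identified transcript, and, per direction, the unnamed transcripts with the largest difference and, above a mean of 100 normalised counts over the 4 fish, the largest ratio. Names came from an earlier match to values shown by the study. Members and lists were chosen with earlier results of these data known. Alternatives were 4 other scalings, no filter, a mean of at least 100, a pseudocount of 10, the 4 compared fish alone, edgeR 4.0.16 and DESeq2 1.42.0 on the recovered reads, and leaving out each fish. The counts at 64-fold and the number of transcripts for 50% of the summed difference were put through them only after seeing the data. Other steps used pandas 2.3.3, numpy 2.4.6 and scipy 1.17.1 under Python 3.11.15. No sequences or coordinates were used here.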

Additional observations from a re-analysis of the deposited data

How the results depend on the processing

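No paired analysis was possible because juveniles carry the numbers 2 and 3 in the table and other numbers in the labels, so no number ties a juvenile to a female. The share of transcripts higher in juveniles was 44.1% with the median of ratios, 47.8% with the upper quartile, and 43.2% with TMM and with the total. It was 43.2% with no filter and 37.7% with a mean of at least 100, and lay between 43.1% and 43.3% with each fish left out. The median log2 size was 2.79 with the median of ratios, 2.56 with TMM, 2.96 with the upper quartile, 2.46 with the total, 1.77 with a mean of at least 100 and 1.80 with a pseudocount of 10 for transcripts higher in juveniles. For those lower it was -1.57, -1.79, -1.40, -1.89, -1.88 and -1.94 in that order, and between -2.24 and -2.08 with each fish left out. Of the juvenile counts of the transcripts used, those higher in juveniles held 74.1% with the median of ratios and 78.3% with the upper quartile. With a mean of at least 100 this share was 71.6%. Transcripts lower in juveniles held 85.5% and 79.6% of the female counts with the median of ratios and the upper quartile. Limma calls higher in juveniles were 3572 with a mean of at least 100, where fewer transcripts were tested, and calls lower in juveniles were 4879 with the upper quartile.

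At 64-fold or more, 138 transcripts were higher and 296 lower with the upper quartile, 48 and 285 with a mean of at least 100, and 24 and 172 with a pseudocount of 10, while without each fish the numbers higher lay between 71 and 152. A share of 50% of the summed difference of transcripts lower in juveniles lay in 306 transcripts with the upper quartile. In transcripts higher in juveniles the median log2 ratio of juveniles over males was 1.03 with TMM, 1.00 with the upper quartile, 0.70 with the total, 1.00 with a mean of at least 100 and 1.06 with a pseudocount of 10, and between 1.06 and 1.26 with each fish left out. That of males over females was 1.497 with the median of ratios, 1.49 with TMM, 1.87 with the upper quartile, 1.73 with the total and 0.78 with a pseudocount of 10. In transcripts lower in juveniles the ratio over males was -0.38, -0.60, -0.56 and -0.93 with the median of ratios, TMM, the upper quartile and the total, -0.35 with a mean of at least 100 and -0.34 with a pseudocount of 10. That of males over females was -1.03, -1.03, -0.70 and -0.79 with the same scalings, -1.44 with a mean of at least 100, -1.505 with a pseudocount of 10 and between -1.62 and -1.498 with each fish left out. Another scaling changes all values of a fish by 1 factor, so it shifts these ratios by construction. The cause of the other shifts was not tested. Of the named genes, zbp3 reversed to 0.11 with the upper quartile, and the other 20 kept their direction under the alternatives run for them, which for cyp19a1a, igf3 and vtg1 leave out the mean of at least 100. Calls were lost for ftz-f1 and zbp3 with the median of ratios and the upper quartile, and for nr0b1, apobb1, gapdhs and hbaa1 as given with these genes. Reads in the table limit cyp19a1a, vtg1, igf3, bmp15 and gdf9, whose juvenile values are at most 13 reads.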
